A study of Mus musculus with 3 samples.

Results

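A total of 6218 autosomal CCGG sites carried MethylRAD reads on day 7 of embryonic stem cell (ESC) differentiation without pargyline and were listed neither in undifferentiated ESCs nor in pargyline-treated cells of the same day. The sites were selected on these measured values. A site had at least 10 reads in the untreated day 7 list and no CCGG row in the other lists. These lists hold sites of 5 or more reads, so at most 4 reads were counted at the motif of an unlisted site. The untreated-only sites were 0.881% of the 706116 CCGG sites with 10 or more untreated reads, and 969569 autosomal CCGG sites were listed in at least 1 library. The same rule turned to the other libraries gave 15343 treated-only sites, 2.23% of the 686721 treated sites with 10 or more reads, and 26381 undifferentiated-only sites, 3.77% of 699656. A further 32126 sites had 10 or more untreated reads, no undifferentiated row and a row in the treated list, and are called sites of both day 7 lists.

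The 3 libraries came from E14Tg2A, an established mouse ESC line kept with leukemia inhibitory factor (LIF) when undifferentiated (day 0). The untreated cells were taken on day 7 after LIF withdrawal and retinoic acid addition. The treated cells were differentiated in the same way with 3 mM pargyline, an inhibitor of monoamine oxidases and of the histone demethylase LSD1. Per the paper, this treatment began before differentiation was induced. Each condition was 1 library, so no spread between replicates was available, no test across conditions was made, and all 95% intervals cover counting error only, with PCR copies counted as separate reads. The line and the mouse strain of the GRCm38 reference differ in origin, no RNA was measured, and markers of the cell states were therefore not checked.

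Cytosine methylation in mammals is placed mostly at CpG dinucleotides by DNA methyltransferases, and CpG-rich promoters usually stay unmethylated. When ESCs leave pluripotency, the enhancers of pluripotency genes lose histone H3 lysine 4 methylation through LSD1 and can then be methylated by DNMT3A. Pargyline blocks LSD1, which is why a gain in untreated cells without one in treated cells was a pattern of interest to the study. FspEI cuts on both sides of a methylated CpG in CCGG and releases a short fragment, so that reads at a CCGG site increase with its methylation.

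The sequences below are GRCm38 plus-strand sequence, 5′ to 3′, with the CCGG of each untreated-only site in capitals and all other bases in lower case. They show the arrangement that was most frequent among neighbouring untreated-only sites, with several CCGG motifs within the length of 1 FspEI fragment.
Zfp451 pair, chr1:33815391-33815490: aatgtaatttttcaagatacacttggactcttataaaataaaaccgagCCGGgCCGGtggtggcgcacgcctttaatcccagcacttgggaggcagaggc
Cdk14 pair, chr5:5380511-5380610: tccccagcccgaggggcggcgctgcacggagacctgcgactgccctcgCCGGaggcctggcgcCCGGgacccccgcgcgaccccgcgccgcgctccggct
Celf2 pair, chr2:6721394-6721493: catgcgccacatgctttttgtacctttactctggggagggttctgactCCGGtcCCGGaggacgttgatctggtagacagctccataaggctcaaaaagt
Sart3 triplet, chr5:113771466-113771565: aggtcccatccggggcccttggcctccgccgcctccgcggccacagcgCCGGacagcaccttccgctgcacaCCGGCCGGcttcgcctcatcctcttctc
Tpm2 upstream triplet, chr4:43530104-43530211: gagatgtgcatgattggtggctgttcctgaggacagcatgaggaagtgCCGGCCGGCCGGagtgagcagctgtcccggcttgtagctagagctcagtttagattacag
Nol3 exon pair, chr8:105279601-105279706: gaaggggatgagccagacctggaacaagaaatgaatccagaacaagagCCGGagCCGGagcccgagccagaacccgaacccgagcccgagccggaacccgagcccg
In the Zfp451 pair, the Cdk14 pair and the Celf2 pair, both motifs carried the same number of reads, 11, 19 and 13, respectively. The triplet downstream of the Sart3 start had 12 reads at each motif, and the 3 adjoining motifs upstream of Tpm2 had 16 each. The Nol3 pair had 24 and 26 reads and lay in a run of short near-repeats. The Zfp451 stretch was 69.0% soft-masked as repeat in the assembly, whereas the stretches at Cdk14, Celf2, Sart3 and Tpm2 had no masked base.

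The next sequences surround the 5 untreated-only sites with the most reads among those that are CCGG in the assembly. None of these windows holds a second untreated-only site, although the Rpl37rt window holds another CCGG motif.
Farp1 intron, 75 reads, chr14:121168859-121168958: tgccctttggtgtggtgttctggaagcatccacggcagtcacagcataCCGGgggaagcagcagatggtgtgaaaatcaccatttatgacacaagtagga
Dock1 intron, 73 reads, chr7:134884587-134884686: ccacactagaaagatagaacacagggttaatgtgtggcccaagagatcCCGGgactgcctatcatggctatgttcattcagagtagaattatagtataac
Intergenic, 61 reads, chr6:124088106-124088205: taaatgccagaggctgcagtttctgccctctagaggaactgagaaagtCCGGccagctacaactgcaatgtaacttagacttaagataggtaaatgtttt
Gm2788 exon, 61 reads, chr7:48885648-48885747: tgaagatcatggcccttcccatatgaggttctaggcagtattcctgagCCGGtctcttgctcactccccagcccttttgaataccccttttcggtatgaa
Rpl37rt promoter, 59 reads, chr5:115110119-115110218: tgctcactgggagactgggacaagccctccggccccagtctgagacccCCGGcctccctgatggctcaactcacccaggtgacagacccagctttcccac
These windows of 100 bases held 1 or 2 CpG dinucleotides each, compared with 4 in the Celf2, 5 in the Zfp451, 11 in the Sart3 and 17 in the Cdk14 window of the same length. The slightly longer Tpm2 and Nol3 stretches held 4 and 9.

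The cluster with the most untreated-only sites lay 4585 bp upstream of the start of Lefty2, a TGFβ family inhibitor of Nodal signalling, and covered 242 bp.
Lefty2 upstream cluster, chr1:180888502-180888783: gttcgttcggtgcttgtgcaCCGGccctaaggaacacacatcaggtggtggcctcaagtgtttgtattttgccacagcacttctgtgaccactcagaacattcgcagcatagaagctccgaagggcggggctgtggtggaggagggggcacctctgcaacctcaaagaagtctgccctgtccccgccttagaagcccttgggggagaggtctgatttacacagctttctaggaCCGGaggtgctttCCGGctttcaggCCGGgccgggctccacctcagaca
Its 4 sites had 13, 17, 15 and 16 reads in the untreated library. The last 3 lay within the length of 1 fragment, and the first lay apart from them.

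The reads that defined the untreated-only sites were few. The median site had 12 untreated reads and the upper quartile was 14, compared with medians of 13 reads at treated-only sites, 16 at undifferentiated-only sites and 15 at sites of both day 7 lists, each in its own library (untreated for both day 7 lists). Of the 6218 sites, 1545 (24.8%) had 15 or more reads, 467 (7.51%) had 20 or more, 72 had 30 or more and 9 had 50 or more. Undifferentiated-only sites had 20 or more reads in 36.7% of cases and treated-only sites in 13.6%. All untreated-only sites together held 83665 reads, which was 0.237% of the CCGG reads of the untreated library. Close sites often had equal counts, so this sum may hold the same reads more than once.

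**Figure D1:**
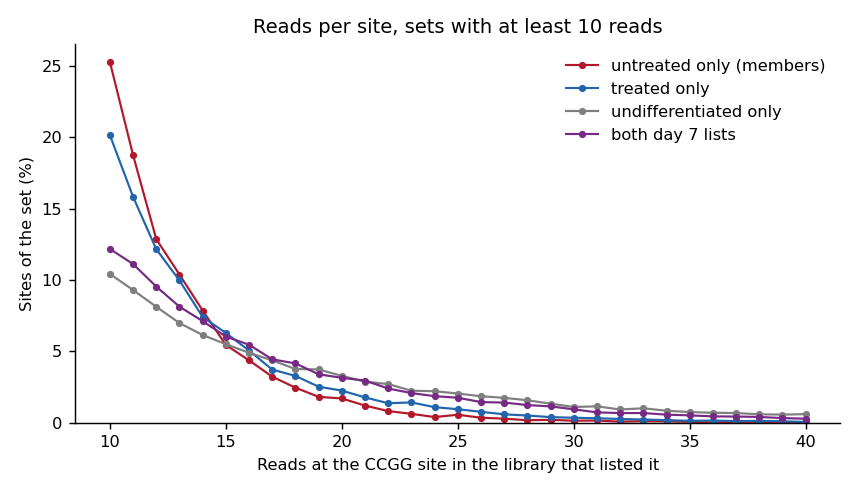
Share of each set (%) by the number of reads at the site in the library that defined it, from 10 to 40 reads, for untreated-only, treated-only and undifferentiated-only sites and for sites of both day 7 lists (untreated reads). The untreated-only curve starts highest at 10 reads and falls fastest, with a median of 12 reads, whereas the undifferentiated-only set has a median of 16.

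The limit of 10 reads fell on the steep part of this distribution. There were 1572 untreated-only sites with exactly 10 reads and 1166 with 11 reads, whereas 2093 sites with the same pattern had 9 untreated reads and stayed outside. The promoter share was 21.5% just inside the limit and 22.5% just outside it. A count of 10 untreated reads corresponds to 0.136 RPM (the count scaled by the authors to the mapped reads of the library), and the 4 reads that an unlisted site could have correspond to 0.0785 RPM in the undifferentiated and 0.0595 RPM in the treated library. On the RPM scale, a site with 10 reads was at least 1.73-fold above the undifferentiated and 2.28-fold above the treated library, and a site with the median of 12 reads at least 2.07-fold and 2.74-fold. By the 703057 CCGG sites listed in all 3 libraries, 10 untreated reads scaled to 8.18 undifferentiated and 7.06 treated reads, close to the minimum of 5 reads for a row. On this scale, a site with 10 reads was at least 2.05-fold above the undifferentiated and 1.76-fold above the treated library, so the order of these bounds depended on the scaling. All these bounds cover only reads counted at the motif itself. Of 126 motifs within 10 bp of an untreated-only site that were not untreated-only themselves, 39 were listed in the treated library, with up to 26 reads. When the counts of all 3 libraries were thinned to the smallest CCGG total, 2907 untreated-only sites were left, whereas the treated-only set held 23970 and the undifferentiated-only set 27294 sites after the same thinning.

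The mapped reads behind the RPM values were 50959931, 73712891 and 67235310 in the undifferentiated, untreated and treated library, and 30438782, 35286914 and 24778383 reads fell on the autosomal CCGG sites. The median listed CCGG site had 27, 30 and 23 reads, respectively. At 12 of the untreated-only positions, another motif or alignment type was listed in the undifferentiated or the treated library, and 8 untreated-only positions are no CCGG in the assembly.

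Untreated-only sites were found at promoters more often than the untreated list as a whole. Of the 6218 sites, 1124 lay within 1 kb of a transcription start site, which was 18.1% (95% Wilson interval, 17.1 to 19.1%), compared with 6.51% (6.45 to 6.57%) of all CCGG sites with 10 or more untreated reads. Since shallow sites were more often at promoters in the whole list, the sites with 10 to 14 untreated reads are the closer comparison. In this range, 19.9% (18.8 to 21.1%) of the untreated-only sites were at promoters and 10.0% (9.83 to 10.2%) of all untreated sites. Treated-only sites had a larger promoter share, 23.2% (22.5 to 23.9%), sites of both day 7 lists had 13.3% (12.95 to 13.7%) or, with 10 to 14 untreated reads, 15.8% (15.3 to 16.4%), and sites listed in the undifferentiated and untreated but not the treated library had 7.26% (6.90 to 7.64%).

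Exons held 591 untreated-only sites, 9.50% (8.80 to 10.3%), compared with 7.35% of all untreated sites, 5.48% of the treated-only sites and 7.21% of the sites of both day 7 lists. Introns held 36.2% (35.1 to 37.5%), below the 44.4% of all untreated sites, and distal intergenic regions held 33.9% (32.7 to 35.0%), below 39.2%. The 3′ untranslated regions held 110 sites, the 5′ untranslated regions 10 and the 300 bp downstream of genes 24. By chromosome, the share of untreated-only sites among all untreated sites ranged from 0.778% on chromosome 18 to 0.989% on chromosome 19, and the intervals of these extremes (0.674 to 0.897% and 0.864 to 1.13%) overlapped.

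**Figure D2:**
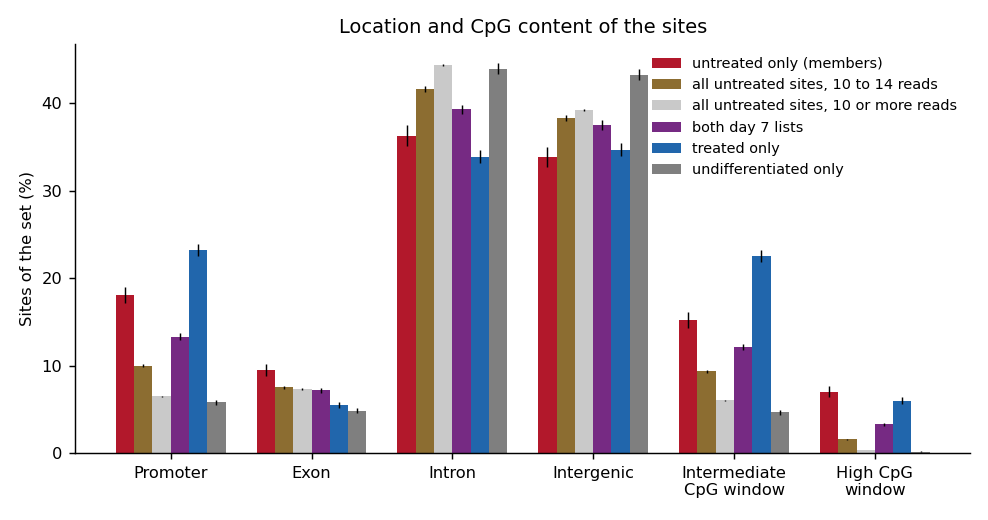
Share of each set (%, with 95% Wilson intervals for counting error) in 4 genomic categories and in 500 bp windows of intermediate and high CpG content. Untreated-only sites (first bar of each group) reach 18.1% at promoters and 7.01% in high CpG windows, above all untreated sites of 10 to 14 reads (10.0% and 1.62%).

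The untreated-only sites also differed from the untreated list in CpG content. High CpG windows, with a CpG ratio of at least 0.75 and a GC content of at least 55%, held 436 untreated-only sites, 7.01% (6.40 to 7.67%). They held 0.419% of all untreated sites and 1.62% of those with 10 to 14 reads, whereas 8.07% (7.32 to 8.88%) of the untreated-only sites and 4.30% (3.99 to 4.63%) of the sites of both day 7 lists in this range were there. Intermediate windows held 15.2% (14.3 to 16.1%) compared with 6.06%, and low CpG windows, with a ratio under 0.48, held 77.8% compared with 93.5%. The treated-only sites were slightly less frequent in high CpG windows (6.003%, 5.64 to 6.39%) and more frequent in intermediate windows (22.5%, 21.9 to 23.2%). Within 200 bp around the site, the median GC content was 52.0% at untreated-only sites and 49.0% at all untreated sites, with medians of 5 and 3 CpG dinucleotides. Most untreated-only sites in high CpG windows were promoter sites, 366 of 436 (83.9%), and the promoter sites were spread evenly over the window classes, with 372 in low, 386 in intermediate and 366 in high CpG windows.

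Set against the CCGG motifs of the genome rather than against listed sites, the pattern was flatter. There were 5.11 untreated-only sites per 1000 promoter motifs (95% Poisson interval, 4.81 to 5.42), 7.51 per 1000 exon motifs (6.92 to 8.14), 4.05 per 1000 intron motifs (3.88 to 4.22) and 3.30 per 1000 intergenic motifs (3.17 to 3.45). Exons were thus the densest large category for the untreated-only sites, whereas the treated-only sites were denser at promoters (16.2 per 1000) than at exons (10.7 per 1000). High CpG windows had 4.75 untreated-only sites per 1000 motifs (4.31 to 5.22) and low CpG windows 3.94 (3.83 to 4.06). Undifferentiated-only sites showed the opposite order, with 0.512 per 1000 motifs in high and 20.5 in low CpG windows. Of the motifs in high CpG windows, the undifferentiated list held 3.24%, the untreated list 9.30% and the treated list 11.6%, compared with 63.2%, 62.9% and 62.8% in low CpG windows.

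Around start sites, untreated-only sites per 1000 motifs stayed between 2.41 and 6.37 in all 250 bp bins out to 5 kb on each side, with the highest value 500 to 750 bp downstream of the start. The share of motifs with 10 or more untreated reads fell over the same distance to 13.6% in the first 250 bp downstream of the start. Of the 1124 promoter sites, 744 (66.2%) lay downstream of the nearest start and 380 upstream, and 537 (47.8%) lay within 250 bp of it. All untreated promoter sites lay downstream in 56.1% and within 250 bp in 32.1% of cases. The promoter motifs themselves were downstream in 62.6% and within 250 bp in 48.01% of cases, so the untreated-only sites followed the positions of the motifs more closely than the listed sites did.

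**Figure D3:**
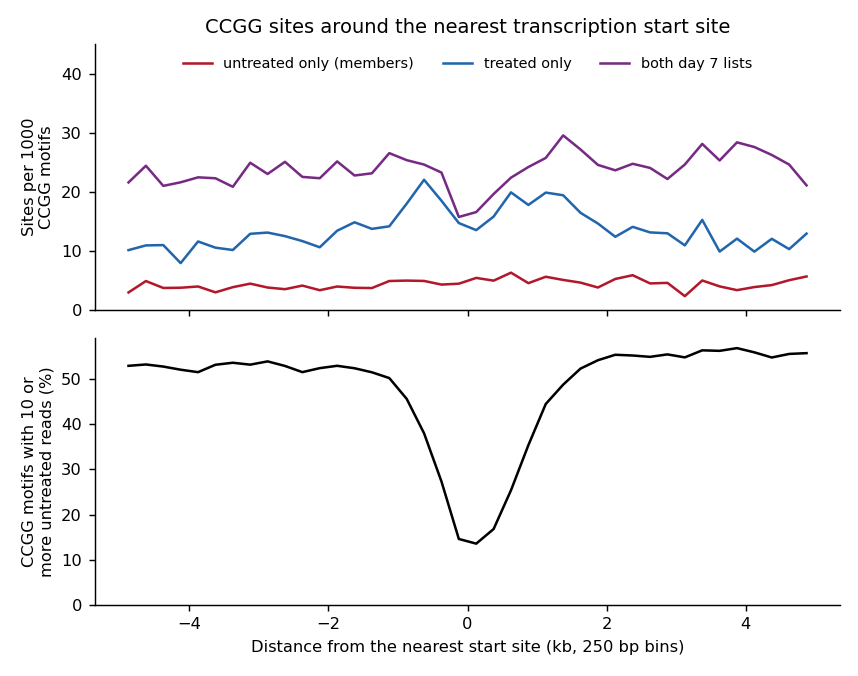
Upper panel, sites per 1000 CCGG motifs in 250 bp bins by distance from the nearest transcription start site (kb) for untreated-only sites, treated-only sites and sites of both day 7 lists. Lower panel, share of the motifs (%) with 10 or more untreated reads. The untreated-only line stays between 2.41 and 6.37 per 1000 motifs across the start, where the share of listed motifs falls to 13.6%.

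The promoter share depended on the number of reads. It was 21.04% (19.6 to 22.6%) at 10 or 11 reads, 18.3% (16.7 to 20.1%) at 12 to 14, 13.6% (11.7 to 15.8%) at 15 to 19, 10.4% (7.74 to 13.8%) at 20 to 29 and 6.94% (3.003 to 15.2%) at 30 or more. In all untreated sites of the same ranges it fell from 10.8% to 5.36%, so that the interval of the deepest range no longer lay above the share of the whole list. The high CpG share fell from 9.17% at 10 or 11 reads to 2.78% at 20 to 29 reads and to 0 of 72 sites at 30 or more. The share of untreated sites that were untreated-only fell from 6.79% at 10 or 11 reads to 0.0169% at 30 or more, so that few of the deep sites were unlisted in both other libraries.

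Short sequence motifs were searched around the sites. The GC box letters GGGCGG, searched on both strands in the 200 bp centred on the site, occurred at 13.4% of the untreated-only sites (12.6 to 14.3%), 3.94% of all untreated sites, 14.2% of the treated-only sites and 10.7% of all CCGG motifs of the autosomes. The E-box letters CACGTG occurred at 3.38% (2.96 to 3.86%) of the untreated-only sites and 2.996% of all untreated sites, and the CRE letters TGACGTCA at 0.241% (0.146 to 0.398%) and 0.161%, and for both the intervals included the share of the whole list. The 32 bp around the site occurred more than once in the assembly for 212 untreated-only sites, 3.41% (2.99 to 3.89%), compared with 0.162% of all untreated sites, 0.653% of those with 10 to 14 reads and 5.10% of the treated-only sites. Soft-masked repeat sequence held 15.8% of the untreated-only and 13.7% of all untreated sites, but 16.7% of both among sites with 10 to 14 reads.

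Untreated-only sites rarely formed regions. Within 1 kb, 1028 of the 6218 sites (16.5%, 15.6 to 17.5%) had another untreated-only site, and these fell into 494 pairs, 12 triplets and the cluster of 4 upstream of Lefty2. Of the 521 links between successive sites up to 1 kb apart, 453 (86.9%) were at most 32 bp long, which is the length of 1 fragment, and 68 were 33 bp to 1 kb long. Of the 396 links of 10 bp or less, 350 (88.4%) joined sites with equal read counts, as in the Zfp451 and Celf2 pairs printed above. With sites up to 32 bp apart counted once, 5765 separate positions remained (5318 single sites, 441 pairs and 6 triplets), and 2.34% of them (1.98 to 2.76%) had another separate position within 1 kb. The same measure was 13.1% for treated-only sites, 7.75% for sites of both day 7 lists, 14.5% for all untreated sites with 10 to 14 reads and 2.86% for undifferentiated-only sites. Larger sets have more neighbours by number alone, and the shares were not adjusted for this.

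**Figure D4:**
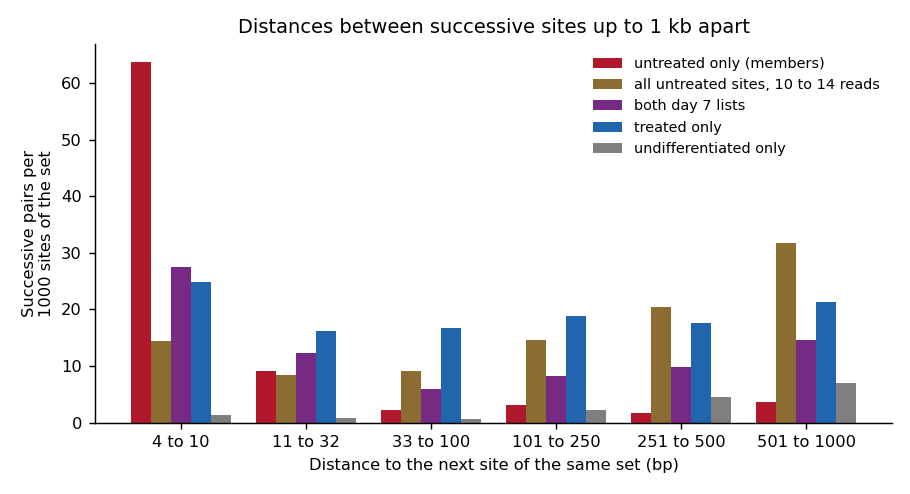
Successive pairs of sites per 1000 sites of the set, by the distance between them (bp, up to 1 kb). Untreated-only sites have 63.7 pairs per 1000 sites at 4 to 10 bp, more than any other set shown, and at most 3.70 per 1000 in each bin from 33 bp to 1 kb.

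Another CCGG motif lay within 10 bp of 903 untreated-only sites (14.5%, 13.7 to 15.4%). This was the case for 0.926% of all untreated sites, 3.30% of those with 10 to 14 reads, 6.06% of the treated-only sites and 4.50% of all CCGG motifs. At 788 of the 903 sites, the close motif was itself an untreated-only site. The 126 close motifs that were not untreated-only were listed in the untreated library in 91 cases, in the treated library in 39 and in the undifferentiated library in 19. Which of several close motifs receives the reads of a fragment is not given in the sources used here, and its part in the pattern was not tested.

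The other CCGG sites around untreated-only sites had reads in all libraries. From 33 bp to 1 kb away, 4535 of the 6218 sites (72.9%) had 11882 other listed CCGG sites, which were not used to choose them. These held 268163 undifferentiated, 322006 untreated and 237488 treated reads. On the RPM scale, the untreated reads were 0.830 times the undifferentiated reads (0.826 to 0.834) and the treated reads 0.671 times (0.668 to 0.675). For neighbours of all untreated sites, the ratios were 0.812 and 0.633, and for those of untreated sites with 10 to 14 reads 0.807 (0.806 to 0.808) and 0.652 (0.651 to 0.652). Over single autosomes, the ratios around untreated-only sites ran from 0.771 to 0.869 and from 0.595 to 0.713. Around untreated sites with 10 to 14 reads they ran from 0.787 to 0.824 and from 0.629 to 0.669. The differences between the sets exceeded counting error, and they were not compared autosome by autosome. The ratios were 0.848 and 0.809 around treated-only sites and 0.822 and 0.675 around sites of both day 7 lists. When the neighbours had to be listed in all 3 libraries, the ratios around untreated-only sites were 0.825 (0.821 to 0.830) and 0.626 (0.622 to 0.629), compared with 0.824 and 0.625 around all untreated sites and 0.813 (0.812 to 0.814) and 0.625 around those with 10 to 14 reads.

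Which of the surrounding motifs were listed was also compared. Among the 21996 CCGG motifs 33 bp to 1 kb from untreated-only sites, the undifferentiated list held 38.2%, the untreated list 43.5% and the treated list 46.5%, whereas around all untreated sites the shares were 66.9%, 69.1% and 70.0%, and around those with 10 to 14 reads 55.5%, 59.3% and 62.1%. Around treated-only sites they were likewise low, at 32.7%, 39.5% and 47.4%. A site of both day 7 lists lay in this range for 505 untreated-only sites (8.12%, 7.47 to 8.83%), compared with 4.79% of all untreated sites and 6.09% of those with 10 to 14 reads. A treated-only site lay there for 250 (4.02%, 3.56 to 4.54%), compared with 2.13% and 3.38%. Untreated-only sites had more CCGG motifs around them (3.54 per site) than all untreated sites (1.91 per site) or those with 10 to 14 reads (2.41 per site), and these shares were not adjusted for motif number.

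The deepest untreated-only site, with 870 reads (exact Poisson interval, 813 to 930), was at chr2:98663975-98663978 in an exon of the predicted gene Gm10801. It is no CCGG in the assembly and lies in soft-masked repeat, and the 5 CCGG sites listed within 5 kb, itself included, carried 1450921 undifferentiated, 1903877 untreated and 1346701 treated reads. The other 9 of the 10 deepest sites had 49 to 75 reads and are single-copy CCGG motifs. The site with 75 reads (59.0 to 94.0) lay at chr14:121168907-121168910 in an intron of Farp1, which encodes a guanine nucleotide exchange factor of developing neurons, and the site with 73 reads at chr7:134884635-134884638 in introns of Dock1, a Rac activator gene, and of the overlapping Fam196a. Other introns with such sites belonged to Rbfox3, a neuronal splicing factor (58 reads), Prune2 (54 reads), Runx1t1, a transcriptional corepressor (50 reads), and the vomeronasal receptor gene Vmn2r92 (49 reads). At 4 of the 10 sites, no other CCGG site was listed at 33 bp to 1 kb. At the Dock1 site, 1 neighbour had 63 undifferentiated, 63 untreated and 31 treated reads, and at the Rbfox3 site 2 neighbours had 68, 17 and 14.

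Among the other large clusters, Nol3, an apoptosis repressor, had 3 untreated-only sites within 419 bp of an exon (11, 24 and 26 reads). Outside genes, 3 sites of 20, 20 and 12 reads were spread over 1012 bp of intergenic sequence on chromosome 13, and the triplet 6558 bp upstream of the tropomyosin gene Tpm2 spanned 12 bp.

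Untreated-only sites within 1 kb of a start site belonged to 1212 genes, of which 861 were protein-coding, 4.64% of the 18571 protein-coding genes with a CCGG motif there. Of the 861 genes, 759 had 1 untreated-only site, 102 had 2 or more, 5 had 3 or more, and 33 had them at 2 or more separate positions. The non-coding genes included 87 antisense, 78 lincRNA and 36 miRNA genes. The promoters of the 861 genes held 11166 other CCGG motifs, a median of 11 per gene, of which the undifferentiated list held 13.6%, the untreated list 20.8% and the treated list 24.6%. At 732 of the 861 promoters another motif was listed in the treated library, compared with 714 in the untreated and 545 in the undifferentiated library. At 68 no other motif was listed in any library. Of all promoter motifs of any gene type, the 3 lists held 24.8%, 29.7% and 33.2%, respectively. The shares at the 861 promoters leave out the untreated-only sites by which they were chosen, so the difference was not read as a result.

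Zfp451, which encodes a SUMO ligase with zinc fingers, had the most untreated-only sites, with 10 reads at each of 2 motifs 273 and 305 bp downstream of its start and 11 reads at each of 2 motifs 870 and 875 bp upstream. Of its other 11 motifs, 5 were listed in the treated library with 46 reads in all (33.7 to 61.4), 4 in the untreated library with 31 reads (21.1 to 44.0) and 1 in the undifferentiated library with 5 reads.

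Cdk14, a cyclin-dependent kinase gene, had 19 reads at 2 motifs 363 and 378 bp upstream of a start and 10 reads at a motif 458 bp downstream. Of its other motifs, 5 had 119 undifferentiated reads, 5 had 138 untreated reads and 7 had 107 treated reads. Celf2, which encodes a splicing regulator, had 13 reads at each motif of the printed pair and 11 at a site near another start, and its other listed motifs had 355 undifferentiated, 326 untreated and 284 treated reads. At Sart3, a spliceosome recycling factor gene, the 3 sites 967 to 995 bp downstream of the start had 12 reads each, next to a motif with 25 untreated and 14 treated reads and no undifferentiated row. Serf2, which encodes a small protein that promotes amyloid aggregation, had 12 reads at each of 3 motifs 48, 35 and 1 bp upstream of a start, and none of its other 16 motifs was listed in any library.

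The first 25 genes by number of untreated-only sites held 52 different sites with 10 to 22 reads, since Timm29 shared its pair of sites with Yipf2 and Ddx25 with Pus3. In 17 of the 25 genes the sites were at 1 separate position, meaning that successive sites were at most 32 bp apart, and in 8 they were at 2 positions. Of the 52 sites, 27 lay in high, 11 in intermediate and 14 in low CpG windows. No other motif was listed in the undifferentiated library at 13 of the 25 genes, in the untreated library at 7 and in the treated library at 7. Another motif without an undifferentiated row was listed in the treated library at 16 of the 25 and in the untreated library at 15.

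Among these genes, Ulk1, which encodes the kinase that starts autophagy, had 22 and 11 reads at sites 173 and 288 bp downstream of its start. Its other listed motifs had 6 untreated and 5 treated reads. Timm29, a subunit gene of mitochondrial protein import, had 20 reads at each of 2 adjoining motifs, and 1 other motif had 6 untreated reads. Ppp2r1b, encoding a scaffold subunit of protein phosphatase 2A, had 18 reads at each of 2 motifs 45 and 50 bp downstream of its start. Plbd1, a phospholipase gene, had 21 and 14 reads and Papln, an extracellular matrix gene, 21 and 12, each at separate positions.

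Nalcn, the sodium leak channel gene, had 15 reads at each of 2 of its 3 motifs, and the other was in no list. The vomeronasal receptor gene Vmn1r188 had 19 reads at 2 of 3 motifs and likewise no other listed motif. Fgf2, encoding a growth factor used to hold primed pluripotent cells, had 14 reads at each of 2 motifs 402 and 407 bp upstream of an internal start, and 4 other motifs were listed in the treated library alone with 36 reads (25.2 to 49.8). Rassf8 had 16 and 15 untreated reads at 2 motifs and 16 treated reads at 2 others. Ripor2 (15 and 16 reads), Nrg3, an ERBB4 ligand gene (17 at both), Neurl1a (16 at both), Dlgap4, a postsynaptic scaffold gene (19 and 18), and Arhgef1, a guanine nucleotide exchange factor gene (17 and 11), had both sites at most 32 bp apart. The pairs at Ddx25, a testis helicase gene, Lrp10 and Fem1c had 14 reads at each motif.

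Of 277 genes in 10 lists of pathways and cell types, 19 had an untreated-only site within 1 kb of a start (6.86%, beside 4.64% of the protein-coding genes with a CCGG motif in this range, whereas the lists also hold non-coding genes). Among 30 pluripotency genes there were 3. Klf2, a transcription factor of naive pluripotency, had 20 reads at chr8:72319964-72319967, 932 bp downstream of its start in a high CpG window. Close to it, a motif had 5 undifferentiated and 12 untreated reads and a further one 12 untreated and 7 treated reads, and 2 other motifs were listed, with 5 untreated and 6 treated reads. Tfcp2l1, another naive pluripotency factor, had 18 reads at chr1:118628634-118628637, 689 bp downstream of its start, where the only other listed motif had 5 treated reads. Dppa4 had 10 reads at 1 of 7 motifs. The other 27 pluripotency genes had no untreated-only site in this range.

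**Figure D5:**
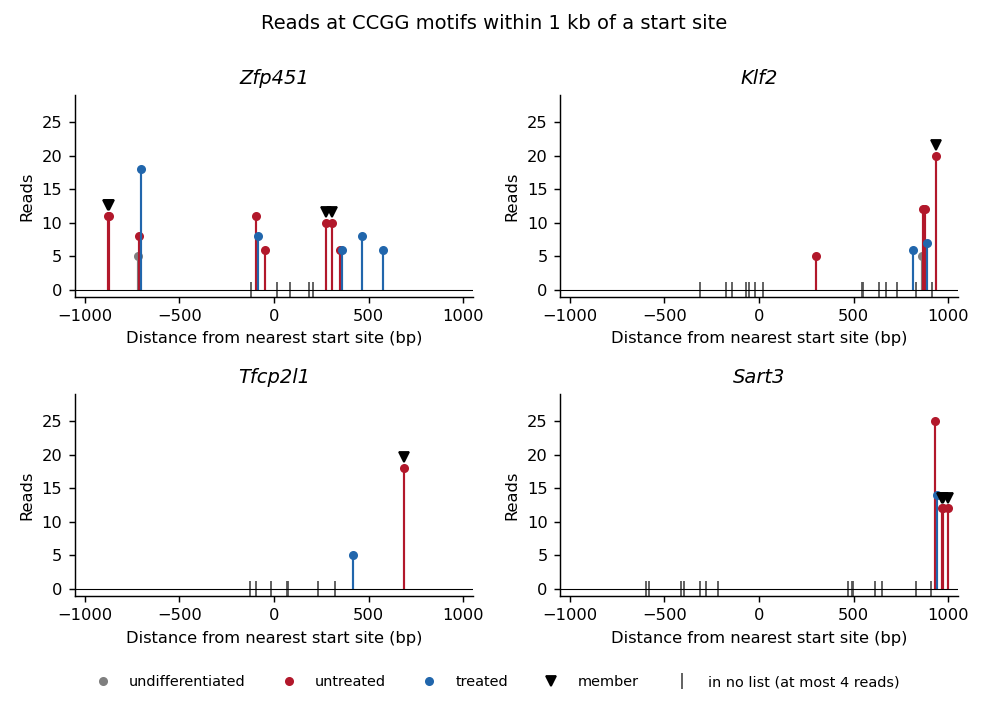
Reads at each CCGG motif within 1 kb of a start site of Zfp451, Klf2, Tfcp2l1 and Sart3, by distance from the start (bp), for the undifferentiated, untreated and treated libraries. Triangles mark untreated-only sites and ticks on the base line mark motifs in no list. Untreated-only sites stand at 10 and 11 reads in Zfp451, 20 in Klf2, 18 in Tfcp2l1 and 12 in Sart3.

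Of 32 germline genes, Dazl, an RNA-binding regulator of germ cells, had 15 reads at 1 site 27 bp downstream of a start. Of its other 16 motifs, 6 had 93 undifferentiated reads, 6 had 183 untreated reads and 10 had 180 treated reads. Of 24 genes of DNA methylation and the LSD1 complex, only Rcor2, a corepressor partner of LSD1, had a site (10 reads). Of its other motifs, 2 had 59 undifferentiated reads, 2 had 86 untreated reads and 8 had 88 treated reads. Among 22 retinoic acid response genes, Crabp2, a retinoic acid carrier, had 13 reads at 1 site and Rara, a retinoic acid receptor, had 10. At Crabp2, 4 other motifs had 59 treated reads (44.9 to 76.1), 2 had 15 untreated reads and 1 had 5 undifferentiated reads. Of 22 endoderm genes, the collagen genes Col4a1 and Col4a2 shared 1 site of 12 reads between their starts.

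Of 39 Hox genes, Hoxd1 had 17 reads at 1 site 156 bp upstream of its start, and Hoxd11 had 10 at 1 site 151 bp upstream. At Hoxd11, no other motif was listed in the untreated library, and 2 had 16 treated reads. None of the 24 neural and 15 trophoblast genes of the lists that were annotated on autosomes had an untreated-only site in this range. Of 30 imprinted genes, 6 had one (20.0%), each with a single site. This was the highest share of the 10 lists and was singled out after the counts were seen. Kcnq1, a potassium channel gene, had 17 reads 25 bp downstream of its start, Gnas, encoding a G protein subunit, 16, and the non-coding RNA gene Peg13 13. At Gnas, the other motifs had 288 undifferentiated, 427 untreated and 355 treated reads, and at Peg13 238, 174 and 144, so these sites stood among motifs with reads in all libraries. Of 40 ribosomal protein genes, 2 had an untreated-only site, among them Rpl19 with 14 reads at 1 site.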

How the data were processed

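MethylRAD was performed by the authors on genomic DNA of 3 samples (undifferentiated, untreated day 7 and treated day 7), with 1 library each. Fragments released by FspEI were excised from a gel, amplified and sequenced. Reads were trimmed, reads without an FspEI site were removed, and the rest were mapped to GRCm38, with 1 mismatch at most. Per the submitters' processing notes, Bowtie2 2.3.3 and FastQC 0.11.3 were used. The authors deposited the count of uniquely mapped reads per CCGG, CCAGG or CCTGG site with 5 or more reads, without normalization, and an RPM value, the count scaled to the mapped reads of the library. The mapped reads were recovered here from the deposited RPM and count columns.

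CCGG rows of alignment type M, as the deposited files name it, were joined by chromosome and position on the 19 autosomes. Sites were annotated with the GENCODE M21 basic annotation, with the first category taken that applied, from promoter (1 kb on each side of any of 77198 start sites) through 5′ UTR and 3′ UTR to exon and intron, then the 300 bp after a gene and intergenic sequence. Windows of CpG content were 500 bp long with 5 bp of overlap, with the class limits of the study's methods. Clusters were chains of sites at most 1 kb apart. Wilson intervals were computed for shares and exact Poisson intervals for counts, at 95%, for counting error only. The untreated-only sites and the gene lists were chosen with earlier results of these data known. Named genes were the 25 protein-coding genes with the most untreated-only sites within 1 kb of a start (ties by reads, then symbol), up to 3 genes per list by reads, the 10 deepest sites and the 5 largest clusters. Sequences were read from the reference assembly by script for the first of these, the deepest sites and the clusters. Computation was done in Python 3.11.15 with pandas 2.3.3, numpy 2.4.6 and SciPy 1.17.1, and plots in matplotlib 3.10.9. The annotation, window, chain and interval code was tested on simulated data. Alternatives were other read minimums, thinned counts, all alignment types, chromosomes X and Y, other promoter and cluster distances, other window positions and other neighbour distances. CCAGG and CCTGG sites were used only where stated, since their counts were nearly the same in several lists, and enhancers were not analysed here. A few items that the rule for named genes selects are not reported here.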

Additional observations from a re-analysis of the deposited data

Results flagged for a closer look

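CCAGG motifs close to untreated-only sites were also looked at, mainly in the treated library, whose CCAGG counts are its own. A CCAGG motif within 10 bp lies within the length of 1 fragment. Its row was therefore not separable from reads of the CCGG fragment. Of the 211 untreated-only sites with a CCAGG motif within 10 bp, 29 had that CCAGG site listed in the treated library (13.7%, 9.74 to 19.04%) and 13 in the undifferentiated library (6.16%, 3.64 to 10.3%), although no CCGG row stood there in either. Over all untreated sites with such a motif, the CCAGG site was listed in 95.9% of cases in the treated and 93.5% in the undifferentiated library. At CCAGG sites, the untreated list gave nearly the same counts as the undifferentiated one. At sites of both day 7 lists, which had untreated but no undifferentiated CCGG rows, the CCAGG site was listed in 95.8% of cases in the treated and in 7.28% in the undifferentiated library, so the undifferentiated CCAGG rows went with the undifferentiated and not with the untreated CCGG rows. The difference between the libraries at the untreated-only sites was not tested, with 1 library per condition.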

How the results depend on the processing

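The number of sites and their shares moved with the minimum of untreated reads. With minimums of 5, 15, 20 and 30 reads, there were 28606, 1545, 467 and 72 sites. Promoter shares were 25.7, 12.5, 9.85 and 6.94%, cluster shares 24.8, 14.95, 15.4 and 5.56%, high CpG shares 11.9, 3.82, 2.36 and 0%, and the genes with a site near a start numbered 4779, 139, 31 and 1. With untreated counts thinned to the undifferentiated library size, 2215 sites were left, with 14.8% at promoters and 10.3% in clusters, and thinning of all libraries left 2907. Promoters of 3 kb on each side held 27.6% and 1 kb upstream alone 8.22%. Links of 33 bp to 1 kb alone gave a cluster share of 2.34%. On the RPM scale, the ratios of neighbouring reads to undifferentiated reads were 0.830 for untreated and 0.671 for treated reads. They were 0.856 and 0.701 at 33 to 500 bp, 0.823 and 0.665 beyond the first 100 bp, and 0.825 and 0.626 at neighbours in all 3 lists. Alignment types, chromosomes X and Y, window position, cluster distances of 500 bp or 2 kb, positions with another row, fragments counted once and repeated sequences moved no value beyond its interval, or no count beyond 1.5 times. Fragment counting, repeats, rows of another motif, thinning of all libraries, distant links and neighbours in all lists were chosen after seeing the data. The depth limits each site, since the median site had 12 reads.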
